A study of Mus musculus with 70 samples.

Results

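Genes of heterotrimeric G protein signalling were examined on 70 two-colour MPIP24k cDNA arrays that set mice of the high anxiety-related behavior (HAB) line against mice of the low anxiety-related behavior (LAB) line. Members were all spots whose array name begins with guanine nucleotide binding protein, regulator of G-protein signaling, G protein-coupled receptor or adenylate cyclase, less 1 name that was left out, and of several spots with 1 name the brightest over the 70 arrays stood for the gene. This gave 58 genes on 88 spots, out of 22824 probes on the array, and 20 of the genes had more than 1 probe.

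Both lines were bred from CD-1 (ICR) stock, and all mice were 10-week-old males, labelled as basal. Breeding was by behavior on the elevated plus-maze, and per the study's methods the mice were killed days after a tail-suspension test, so they were not naive to testing. RNA of 6 HAB and of 6 LAB mice was pooled within a line for each of 7 regions obtained by micropuncture: the hypothalamic paraventricular nucleus (PVN), the basolateral (BLA), central (CeA) and medial (MeA) amygdala, the nucleus accumbens (NAc), the cingulate cortex (Cg) and the supraoptic nucleus (SON). Each region had 10 arrays, 5 with HAB in the dye Cy3 and 5 with HAB in Cy5, all of the same pair of pools. The arrays are therefore technical replicates, their p-values compare 2 pools and not the lines, and the regions come from the same mice. In such bulk tissue, fewer cells of a type and less RNA per cell cannot be told apart.

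G proteins couple receptors of the cell surface to enzymes and channels inside the cell. A receptor that binds its ligand lets the alpha subunit exchange GDP for GTP and part from the beta and gamma subunits; alpha s raises and alpha i lowers the output of adenylate cyclase, which makes cAMP, whereas the beta-gamma pair acts on channels and enzymes of its own. RGS proteins speed up GTP hydrolysis by the alpha subunit and so end the signal, and receptor kinases mark active receptors for uncoupling. In the amygdala, hypothalamus and striatum this pathway carries the signals of monoamines, opioids and many neuropeptides.

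Over all channels, the median intensity ranged from 135.2 to 2480 and that of the empty spots from 40 to 940. A spot was counted as above the empty spots in a channel when it exceeded their median by more than 2 scaled median absolute deviations on the log2 scale. The scaling was the usual one that equals the SD for a normal distribution. Of 22824 probes, 6955 were above the empty spots on at least 35 of 70 channels of either line. Of the 58 genes, 21 passed this limit: 4 of 10 alpha, 5 of 6 beta and 3 of 8 gamma subunits, 3 of 10 genes of the RGS group, 4 of 14 receptors, 1 of 3 receptor kinase genes and 1 of 5 adenylate cyclases. The PACAP gene and the 1 other G protein gene did not. The remaining 37 genes are called dim here, although some, such as Adcyap1, passed the limit in single regions. Markers were partly at hand to check the dissection. The level of Avp, the vasopressin gene of magnocellular neurons, was highest in the PVN (log2 0.78 ± 0.42 relative to the median probe of the array; SD, n = 10 arrays) and the SON (0.76 ± 0.49) and lay between -1.23 and -0.44 in the other regions. Avp reached the empty spot limit on 20 HAB and 15 LAB channels of 70, and Oxt, the second magnocellular marker, on 9 HAB and 7 LAB channels, so both are dim on these arrays. Other markers did not all follow the dissection. Tac1, a striatal marker, was highest in the NAc (4.55), but Penk, another one, was at 1.13 in the BLA and 0.95 in the NAc. Adora2a, also striatal, was at 0.32 in the PVN and -0.07 in the NAc. Nrgn, a cortical marker, was at 2.58 in the PVN and 1.77 in the Cg, whereas the dim Tbr1 was highest in the Cg (0.08). Oxt was highest in the PVN (-0.19), but at -0.46 in the SON and -0.43 in the BLA.

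The first question was whether any gene of the group differed between the lines in the same way throughout the brain. With limma over the 7 region values and Benjamini-Hochberg adjustment over all probes, 0 of 58 genes were higher and 0 were lower in HAB. The array-wide share was 0.302% (0.127% of probes higher, 0.175% lower), or 0.82% among probes above the empty spots. Adjusted over those brighter probes alone, again 0 of 21 genes passed, against 0.92%. At an unadjusted p under 0.05, 1 gene was higher and 1 was lower in HAB. The lowest adjusted p of the group was 0.709. The median log2 HAB/LAB over the 58 genes was -0.01, against -0.00059 over all probes, and the median size of the difference, regardless of sign, was 0.064 against 0.063.

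**Figure D1:**
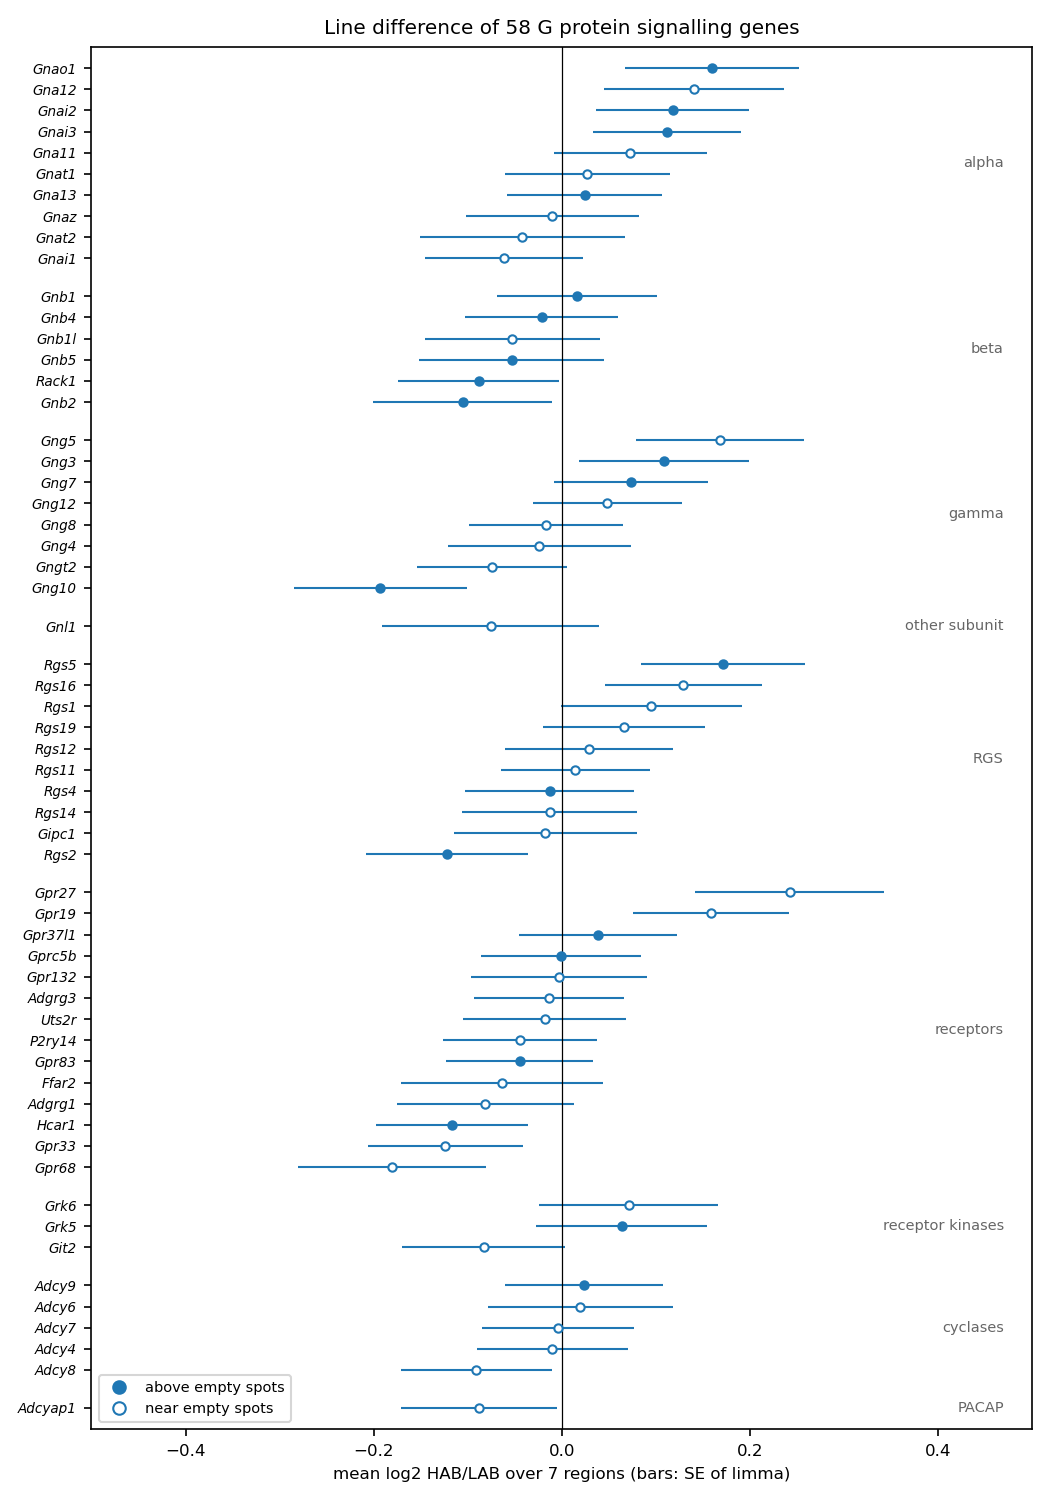
Mean log2 HAB/LAB over the 7 regions (horizontal axis) of the 58 genes, ordered within their roles, with the standard error of the limma fit as bars. Filled points are the 21 genes above the empty spots, and no gene of either kind passed the test after adjustment.

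The alpha subunits, which choose the effector, were measured with 10 genes, and 7 of their means were above 0. Gnao1, the alpha o subunit that is abundant in neurons and passes signals of inhibitory receptors to channels, had a mean log2 HAB/LAB of 0.16 (SE 0.092, 95% interval -0.03 to 0.35, limma adjusted p = 0.844). Among the alpha genes above the empty spots it was followed by the inhibitory subunits Gnai2 at 0.12 (SE 0.082) and Gnai3 at 0.11 (SE 0.079), which were each above 0 in 5 of 7 regions. With HAB in Cy5, Gnai2 and Gnai3 were below 0, at -0.16 and -0.06, against 0.40 and 0.29 with HAB in Cy3. Gna13, which links receptors to the cytoskeleton, was at 0.02 (SE 0.082). These 4 genes were above the empty spots, and their intervals all included 0. The dimmer probes of Gnai2 and Gna13 had the other sign: the second Gnai2 probe was at -0.14, and the other Gna13 probes were at -0.19 and -0.18. Among the 6 dim alpha genes, Gna12, of the same subfamily as Gna13, was at 0.14, Gna11, which activates phospholipase C, at 0.07, the inhibitory Gnai1 at -0.06 and Gnaz at -0.01. The transducins Gnat1 (0.03) and Gnat2 (-0.04) are known from photoreceptors. Gnat1 passed the empty spot limit on 20 HAB and 14 LAB channels, Gnat2 on 0 HAB channels and 1 LAB channel.

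Beta subunits gave 5 of 6 means below 0, none past the test. Gnb2 stood at -0.11 (SE 0.095) and ran from -0.51 in the SON to 0.23 in the CeA. Its SON value was -0.36 without 1 array at -2.37, and its second, dim probe was at 0.38 there and at 0.08 over the regions. Rack1, a scaffold with the fold of a beta subunit that the array names as one, was at -0.09 (SE 0.086). Gnb5, a divergent beta subunit that pairs with RGS proteins in neurons, was at -0.05 (SE 0.098), Gnb4 at -0.02 and Gnb1 at 0.02. Of the gamma subunits, Gng10 had the lowest mean of the 21 genes above the empty spots (-0.19, SE 0.092, interval -0.38 to -0.004, adjusted p = 0.781). Its sign went with the dye: arrays that carried HAB in Cy3 averaged 0.39, and those that carried it in Cy5 averaged -0.77. The neuronal gamma subunit Gng3 was at 0.11 (SE 0.090) and Gng7, which in the striatum serves the subunit that stimulates adenylate cyclase, at 0.07 (SE 0.082).

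In the RGS group, Rgs2, a regulator whose loss makes mice more anxious, had 3 probes, all above the empty spots. The brightest was above 0 in 1 of 7 regions with a mean of -0.12 (SE 0.086, interval -0.30 to 0.06, adjusted p = 0.897), and the others gave 0.004 and -0.05. In the NAc, where the brightest probe was lowest, its 10 arrays ran from -1.04 through a median of -0.45 to 0.29, and the other probes gave means of 0.07 and -0.15 there. In the CeA the brightest probe was at 0.29 and the others at -0.38 and -0.45. The probes of Rgs2 thus did not share a direction in either region. Rgs4, which dampens receptor signals in cortex and striatum, was at -0.01 (SE 0.090, from -0.40 in the CeA to 0.35 in the MeA). Without 1 array at 1.89, its MeA value was 0.20. Rgs5, a regulator best known from pericytes of small vessels, had the highest mean of the genes above the empty spots, at 0.17 (SE 0.087, adjusted p = 0.810), with 6 of 7 regions above 0; without 1 array at 2.41, the Cg was at -0.06 instead of 0.16. Its other probe was at -0.16 with 2 of 7 regions above 0. Rgs5, Gpr37l1 and Adcy9 passed the limit for empty spots through HAB channels only (38 HAB and 32 LAB channels for Rgs5), so the limit favoured a higher HAB value in these 3 genes.

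The receptors in the group are mostly orphans or adhesion receptors. Gprc5b, an orphan receptor with a wide expression in brain, was at -0.00084 (SE 0.085), and Gpr37l1 of astrocytes at 0.04 (SE 0.084). Hcar1, the lactate receptor, stood at -0.12 (SE 0.081) with 1 of 7 regions above 0, and Gpr83 at -0.04 (SE 0.078), also with 1 of 7. The largest mean of all 58 genes was that of the orphan receptor Gpr27 (0.24, SE 0.101, limma adjusted p = 0.709), a spot that passed the empty spot limit in 2 HAB channels and in 0 LAB channels over the 70 arrays. Arrays with HAB in Cy3 averaged 0.00037 for Gpr27, and those with HAB in Cy5 averaged 0.485. The dim receptor Gpr132, a sensor of acid and lipids, was at -0.0028. Grk5, a kinase that uncouples receptors, was at 0.06 (SE 0.091), and the dim Grk6 and the kinase-interacting Git2 at 0.07 and -0.08. The genes of all roles that are not named here were dim, with means from -0.18 to 0.17, and none was counted in a region.

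Adenylate cyclases, the enzymes that make cAMP, were represented by 5 genes, and their means lay between -0.09 and 0.02. Adcy9, the 1 cyclase above the empty spots, was at 0.02 (SE 0.084), ranging from -0.25 in the MeA to 0.36 in the BLA. Adcy4 was at -0.01, Adcy6 at 0.02, Adcy7 at -0.0038 and the calcium-stimulated Adcy8, which was above the empty spots in 1 HAB and 1 LAB channel, at -0.09. Adcyap1 encodes PACAP, a neuropeptide that raises cAMP and takes part in the stress response, and was at -0.09 (SE 0.083). It reached the empty spot limit on 32 HAB and 27 LAB channels, and these came from a few regions: 10 of 10 HAB and 10 of 10 LAB channels of the PVN, 9 HAB and 8 LAB channels of the MeA, 9 HAB and 7 LAB channels of the Cg, but 0 in either pool of the CeA and the NAc. The limit differed between regions, so these counts do not rank the regions by level. In the MeA the line ratio of Adcyap1 was -0.42 and in the PVN 0.02, and neither passed limma within the region. Gnl1, a GTP-binding protein that the array lists with the subunits, was at -0.08 on a spot above the empty spots in 0 HAB channels and 1 LAB channel.

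The second question was whether single regions differed. A gene was counted in a region when its mean line ratio was at least 1.3-fold and all 10 arrays pointed the same way. This was met by 2 of 406 pairs of gene and region (0.493%), both higher in HAB, against 0.956% of all pairs of probe and region (0.397% higher and 0.559% lower in HAB). The genes were 2 of 58 (3.45%), against 5.13% of probes counted in at least 1 region. By the brightest probe of each gene, the group thus held no more counted differences than the array. Among the 21 genes above the empty spots, 0 of 147 pairs and 0 genes were counted, against 2.56% of such pairs and 12.9% of such probes. In the CeA, where 0.46% of probes were counted as higher, the gene was Gpr27. Its level there ran from -1.57 through a median of -0.22 to 1.27 in the HAB pool and from -2.92 through -1.02 to 1.07 in the LAB pool (log2 over the median probe of the array). The pools overlapped between arrays, and it was within each array that HAB was higher, by 0.20 through 0.77 to 1.76 (mean 0.85 ± 0.54, SD, limma adjusted p = 0.088). In the Cg, where 0.767% were counted as higher, it was the adhesion receptor Adgrg1, which acts in the development of cortex and myelin. Its level ran from -0.17 through 0.18 to 0.93 in the HAB pool and from -0.68 through -0.11 to 0.46 in the LAB pool, and its ratio from 0.0028 through 0.39 to 1.04 (mean 0.42 ± 0.32, limma adjusted p = 0.315). The empty spot limit was reached in 1 HAB and 0 LAB channels for Gpr27 and in 2 HAB and 0 LAB channels for Adgrg1, and the second Adgrg1 probe ran from -0.85 to 1.73 on the Cg arrays. On the 2 scanning days of the CeA, Gpr27 was at 0.29 on 2 arrays and at 0.99 on 8, and on those of the Cg, Adgrg1 was at 0.30 on 6 arrays and at 0.60 on 4. The smaller set of either region had HAB in Cy3 only, so these values mix day and dye.

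With limma within a region, adjusted over all probes, 0 of 406 pairs passed, against 0.364% of all pairs (0.116% higher and 0.248% lower in HAB) and 1.05% of pairs above the empty spots. At an unadjusted p under 0.05, 22 pairs were higher and 23 lower. When the fit was restricted to the 6955 probes above the empty spots, 7 of 147 pairs passed (4.76%), 3 higher and 4 lower in HAB, against 6.01% of all such pairs (2.6% higher and 3.41% lower). By region, 4.76% of these probes passed in the PVN, 9.43% in the CeA, 13.8% in the NAc and 10.5% in the Cg. Gnao1 was then higher in the NAc (0.33, adjusted p = 0.028) and in the Cg (0.50, adjusted p = 0.0086), and Gng3 in the PVN (0.41, adjusted p = 0.025). Lower were Gng10 in the CeA (-0.64, adjusted p = 0.0051) and, in the NAc, Gnb5 (-0.38, adjusted p = 0.019), Rgs2 (-0.36, adjusted p = 0.017) and Gnb2 (-0.46, adjusted p = 0.040).

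**Figure D2:**
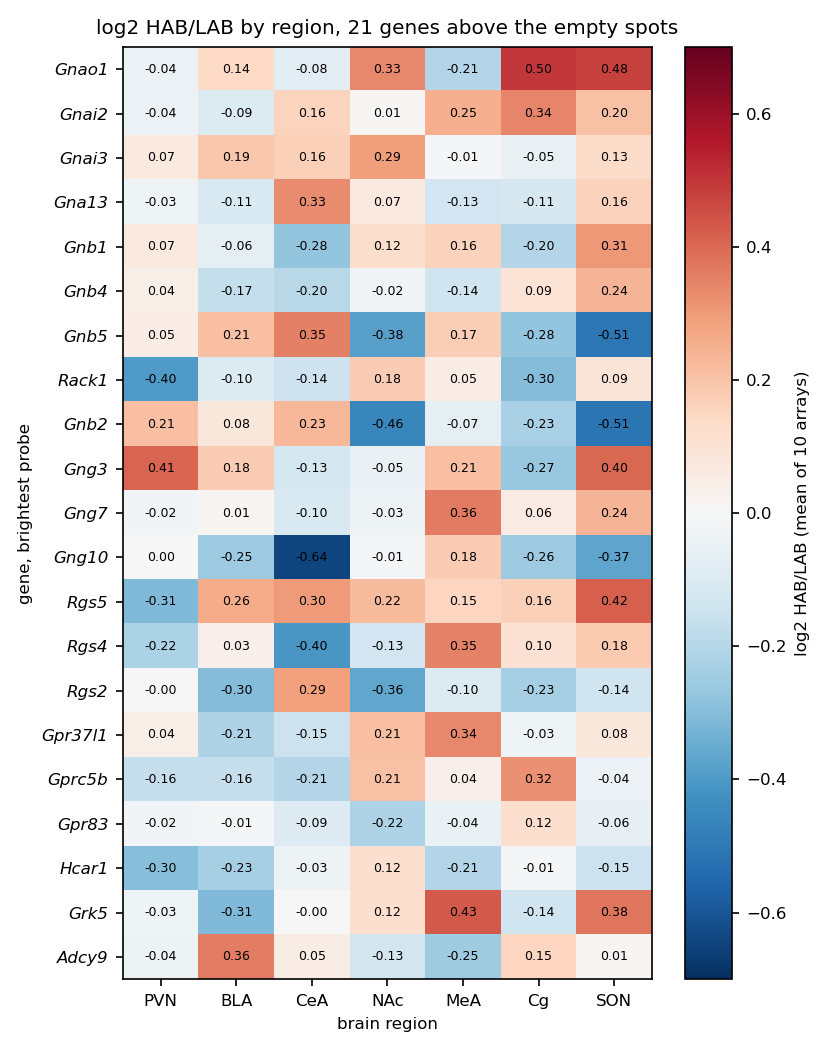
Log2 HAB/LAB of the 21 genes above the empty spots (rows, brightest probe) in the 7 regions (columns), each cell averaging the 10 arrays of its region. Red is higher and blue is lower in HAB, and the values run from -0.64 (Gng10, CeA) to 0.50 (Gnao1, Cg), with 0 genes that keep 1 sign in all regions.

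The third question was whether the line difference of a gene was unequal over the regions. By the limma F-test over the 7 regions at the level of arrays, 3 of 58 genes (5.17%) were unequal, against 6.1% of all probes; all 3 were above the empty spots, where 17.5% of probes passed. They were the subunits Gnao1 (adjusted p = 0.000116), Gnb5 (adjusted p = 0.00159) and Gng10 (adjusted p = 0.0227), 1 each of the alpha, beta and gamma classes. Adjusted over the probes above the empty spots, 8 of 21 genes passed, against 30.9% of such probes, and the additional ones were Rgs4, Rgs2, Gnb2, Gnb1 and Grk5.

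For Gnao1 the line ratio was near 0 in the PVN (-0.04), where the 10 arrays stayed between -0.18 and 0.13. It was highest in the Cg, where the level of Gnao1 ran from 3.88 through 4.53 to 5.03 in the HAB pool and from 3.45 through 4.14 to 4.74 in the LAB pool. The ratio there ran from -0.0014 through 0.57 to 0.86 and was above 0 on 9 of 10 arrays, with means of 0.60 on 6 arrays of one scanning day and 0.34 on 4 of the other. Since HAB was in Cy3 on 1 of these 6 and on 4 of these 4 arrays, day and dye can hardly be told apart there. In the SON the arrays ran from -0.13 through 0.41 to 1.18, and in the NAc from -0.01 through 0.39 to 0.69. The MeA had the lowest mean, -0.21. The arrays split by dye without overlap in the MeA and the SON. In the NAc the orientations overlapped, from -0.01 to 0.69 for HAB in Cy3 and from 0.24 to 0.46 for HAB in Cy5. The mean for HAB in Cy3 was -0.57 in the MeA, against 0.15 for HAB in Cy5. The SON had 0.12 for Cy3 against 0.83 for Cy5. The Cg had 0.27 against 0.72, and there the orientations overlapped narrowly, with Cy3 up to 0.58 and Cy5 from 0.56.

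The second Gnao1 probe, which was described after its values were seen, went another way. It passed the empty spot limit in 64 HAB and 63 LAB channels, so it was a bright spot too. In the MeA its level ran from 2.32 through 3.26 to 4.30 in the HAB pool and from 3.11 through 4.33 to 5.10 in the LAB pool, which overlap between arrays. Within arrays it was lower in HAB on 10 of 10 arrays, from -1.59 through -1.05 to -0.58 (mean -1.07 ± 0.35, 2.10-fold, limma adjusted p = 0.0017 within the region). In the Cg it was also lower on 10 of 10 arrays (mean -0.69 ± 0.46, adjusted p = 0.082), where the brightest probe was at 0.50. This probe thus met the 1.3-fold rule in 2 regions and passed limma in 1. The counts above leave it out, as they use the brightest probe of each gene. In the SON and the NAc both probes were above 0 (0.48 and 0.35 for the second, 0.48 and 0.33 for the brightest). The pair differed most in the MeA and the Cg, and the remaining Gnao1 probes, near the empty spots, had means of 0.020 and 0.017. When all 4 probes were averaged, Gnao1 no longer passed the F-test (adjusted p = 0.200).

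**Figure D3:**
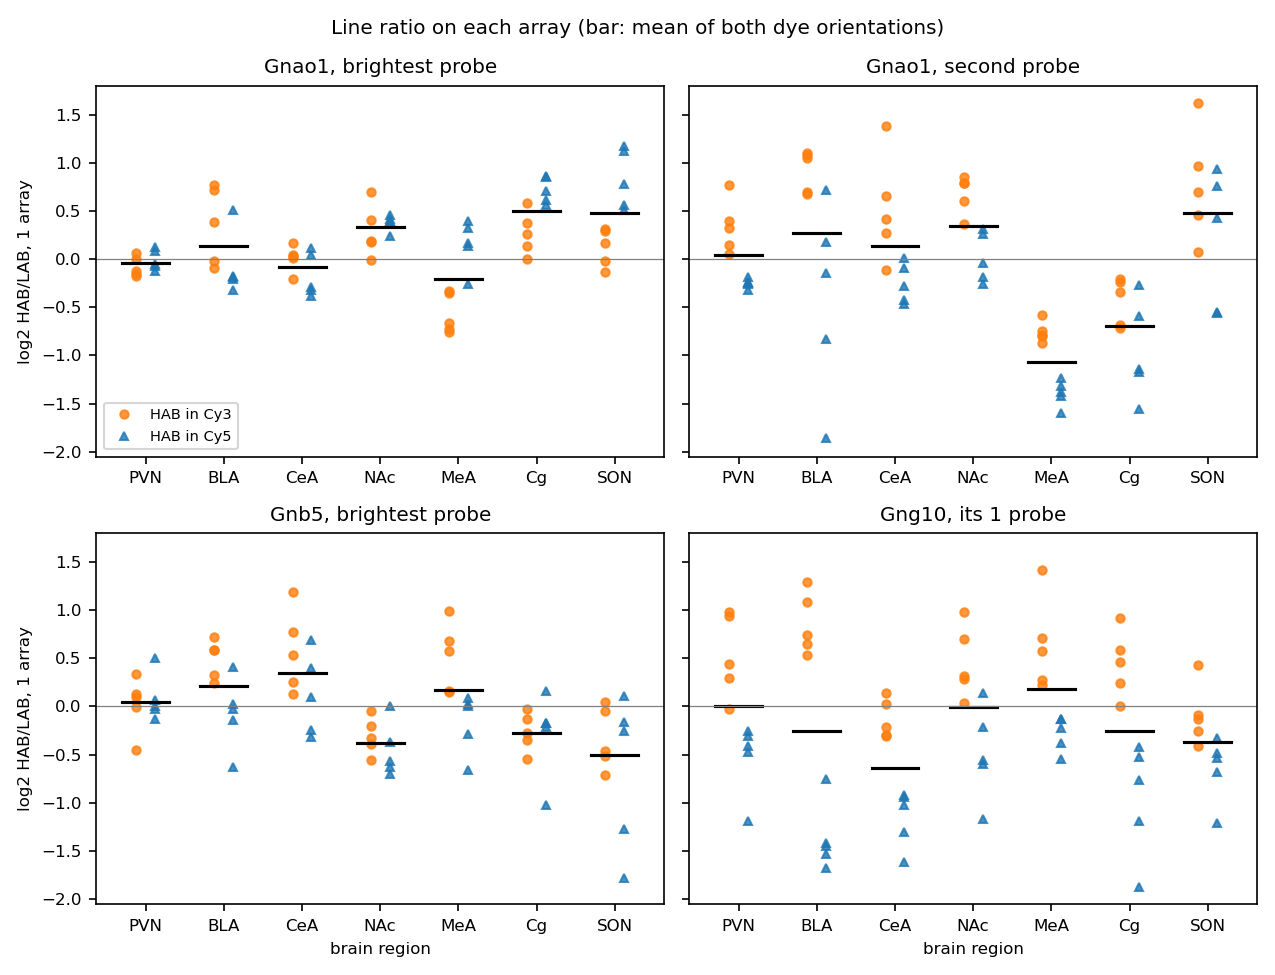
Log2 HAB/LAB on each of the 70 arrays (vertical axis) by region (horizontal axis) for 2 probes of Gnao1, the brightest probe of Gnb5 and the probe of Gng10; circles are arrays with HAB in Cy3, triangles arrays with HAB in Cy5, and bars the mean of both orientations. The second Gnao1 probe is below 0 on all arrays of the MeA and the Cg, and the orientations of Gng10 do not overlap in 5 of 7 regions.

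Gnb5 had a ratio of 0.35 in the CeA and of -0.51 in the SON, -0.38 in the NAc and -0.28 in the Cg. In the NAc its level ran from 1.22 through 2.45 to 3.39 in the HAB pool and from 1.59 through 2.71 to 3.64 in the LAB pool, and the ratio from -0.70 through -0.38 to 0.0070, below 0 on 9 of 10 arrays. In the SON the ratio ran from -1.78 to 0.11, and the mean rested in part on 2 low arrays with HAB in Cy5. The second Gnb5 probe, also above the empty spots, stayed between -0.11 and 0.26 over the regions and was at -0.04 in the NAc, and its F-test gave an adjusted p of 0.819. With both probes averaged, Gnb5 did not pass (adjusted p = 0.105).

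Gng10 had 1 probe, and the arrays of its dye orientations did not overlap in 5 of 7 regions (in the NAc and the SON they did). In the CeA its level ran from 0.37 through 1.94 to 3.84 in the HAB pool and from 0.23 through 2.55 to 4.14 in the LAB pool. The mean ratio there was -0.64, with -0.13 for HAB in Cy3 and -1.16 for HAB in Cy5, and in the BLA the orientations gave 0.86 and -1.37. Because both orientations enter a region mean equally, a dye effect of constant size cancels there. Without the CeA, Gng10 was no longer unequal over the regions (adjusted p = 0.375), and without the MeA it was not either (adjusted p = 0.133). Among the 58 genes, 42 (72.4%) had means of opposite sign in the 2 orientations, against 67.0% of all probes.

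Markers of other cell types also had line ratios away from 0 in these regions. Of 7 oligodendrocyte markers, 4 above the empty spots, 3 were higher and 4 lower in HAB in the Cg, where their summed level lay between 6.85 and 7.96 in the HAB pool and between 7.44 and 8.55 in the LAB pool. In the NAc, 4 were higher and 3 lower, with sums of 6.43 to 8.05 in HAB and 7.48 to 8.74 in LAB, and in the CeA 2 were higher and 5 lower, with sums of 5.73 to 8.11 in HAB and 4.66 to 7.95 in LAB. The markers did not share a direction: Cnp and Mobp, genes of the myelin sheath, had ratios of -1.36 and -1.21 in the NAc, of -0.99 and -0.89 in the Cg but of 0.69 and 0.72 in the CeA. Mbp, the myelin basic protein, was at 0.46, 0.64 and -0.40 in the NAc, the Cg and the CeA. Nrgn, a marker of cortical neurons, was at -0.49, -0.71 and 0.73 in these regions, and the dim Tbr1 at 0.31, -0.35 and 0.02. The largest marker ratio was that of Ttr, of the choroid plexus, in the BLA (-3.22). There Enpp2 was at -1.49 and the dim Folr1 at -0.27, so the means of all 3 choroid plexus markers were below 0. Folr1 was above 0 on 4 of 10 BLA arrays, in 0 HAB and 0 LAB channels above the empty spots. The paper reports that its follow-up did not reproduce a Ttr difference in the BLA. The part of these markers in the values of Gnao1, Gnb5 and Gng10 was not tested. Hbb-b1, a haemoglobin gene that marks blood, was higher in HAB over the regions (0.84, adjusted p = 0.000342), the 1 of 38 marker genes that passed. The other blood markers were dim: Alas2 of red cell precursors was at 0.14 (adjusted p = 0.900) and Hba-a1, the alpha chain of haemoglobin, at -0.10 with 6 of 7 regions below 0.

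Where each gene was bright could be described for both lines together, always for 1 probe across regions. Rgs2 had a level between 5.20 ± 0.81 in the CeA and 6.47 ± 0.21 in the PVN (SD over 10 arrays), a spread that overlapped between most regions. Rgs4 was brightest in the Cg (4.22 ± 0.49), next in the PVN (3.20 ± 0.64), and lowest in the CeA (1.38 ± 0.67), and the Cg exceeded the PVN by more than either SD. Gnao1 ran from 2.85 ± 0.40 in the CeA to 4.85 ± 0.48 in the PVN. Gng7 was brightest in the SON (2.19 ± 0.41) and the NAc (2.00 ± 0.38), which did not differ beyond their spread, and dimmest in the Cg (0.34 ± 0.37). Gng3 was high in the PVN (2.20 ± 0.38) and the Cg (1.93 ± 0.60) and low in the CeA (0.06 ± 0.42). Adcyap1 had its highest levels in the PVN (1.58 ± 0.36), the MeA (1.54 ± 0.93) and the Cg (1.31 ± 0.53), which did not differ beyond their spread, and was at 0.36 or less elsewhere.

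Gnai3 was at -1.28 ± 0.34 in the PVN and between 2.40 and 3.33 in the other regions. In the PVN it was above the empty spots in 0 HAB channels and 1 LAB channel. A level at least 2 log2 units below every other region was seen for 112 probes in the PVN and for at most 11 in any other region. Levels as far above every other region were seen for 152 probes in the PVN and for at most 4 in any other region. The PVN arrays thus stood apart in both directions, which also bears on the high PVN levels given above. Of the G protein genes, 1 was on the low side in the PVN and 0 were on the high side. The arrays of different regions were scanned on different days, so the region and the scanning day cannot be told apart in these levels. A line ratio is taken within an array. The F-test, however, compares ratios between regions, so region and scanning day cannot be told apart in its calls either.

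**Figure D4:**
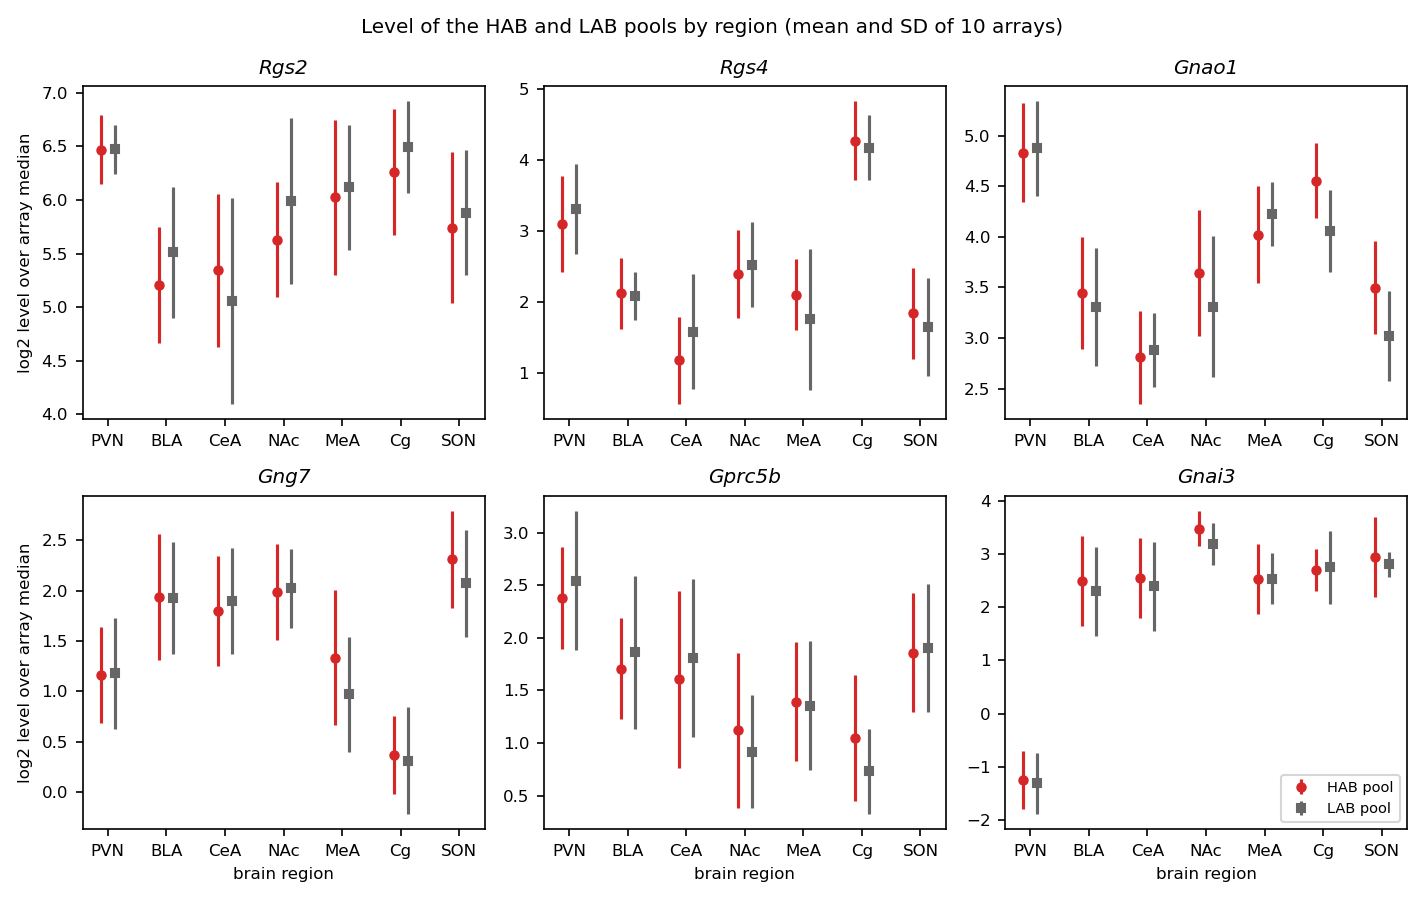
Level of 6 genes (log2 intensity over the median probe of the array, vertical axis) in the HAB pool (circles) and the LAB pool (squares) of each region, as mean and SD of 10 arrays. The HAB and LAB bars of a region overlap in these panels, and Gnai3 is at -1.28 in the PVN.

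Further along the pathway, 42 genes were taken from names of phospholipase C beta, phosphodiesterases, cAMP-dependent kinase, cAMP responsive element factors, kinase anchors, inositol triphosphate receptors, protein kinase C, the receptor kinase beta and DARPP-32. None passed limma over the regions (lowest adjusted p = 0.757; 0 higher and 1 lower at an unadjusted p under 0.05), and their median log2 HAB/LAB was -0.02. Counted by the 1.3-fold rule were 5 of 294 pairs (1.7%, against 0.956% of all pairs), 2 higher and 3 lower in HAB, in 4 of the 42 genes (9.52%, against 5.13% of all probes). All lay in the 21 genes above the empty spots, of whose pairs they made 3.4% and of whose genes 19%, against 2.56% of such pairs and 12.9% of such probes. Phospholipase C, beta 3, which splits a membrane lipid downstream of G proteins, was lower on 10 of 10 arrays in the SON (-0.69 ± 0.42; 0.237% of probes counted lower) and in the CeA (-0.44 ± 0.32; 0.552%), and its mean over the regions was -0.21. The catalytic alpha subunit of protein kinase A, the main effector of cAMP, was lower in the Cg (-0.56 ± 0.33; 0.824%), where protein kinase C, beta was higher (0.42 ± 0.18). Protein kinase C, delta was higher in the CeA (0.39 ± 0.37), where its level was lowest of the 7 regions (4.24 ± 0.86, against 4.95 to 6.65 elsewhere). None of these pairs passed limma within its region (adjusted p from 0.151 to 0.336). By the F-test, 5 of the 42 genes (11.9%) were unequal over the regions, against 6.1% of all probes. Of the 21 genes of this list above the empty spots, 4 were (19%), against 17.5% of such probes.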

How the data were processed

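RNA of pooled punches was amplified in 2 rounds and hybridized to MPIP24k arrays. Per the file headers, the deposited intensity values are scanner readings without background subtraction or crosstalk correction. The deposited log2 ratios were normalized by the authors with a global LOESS over 40% of the spots and steps for slide position; they ran as HAB over LAB on every array (correlation with the scanner ratios 0.861 to 0.972, column medians -0.00698 to 0.0106), and what filter left values empty is not given in the sources used here. The dye of each channel was read from the header, and for 3 channels from the image name.

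From the intensities, both channels were corrected with normexp (offset 50), normalized by loess (span 40%) and centred in 48 print-tip blocks, with 1368 control and empty spots left out. Region values are means of both dye orientations. Tests used limma 3.58.1 in R 4.3.3 with Benjamini-Hochberg adjustment over 22824 probes and a threshold of 0.05: an intercept over 7 region values, a mean with a dye term within each region, and an F-test over regions. A level is the log2 intensity averaged over both channels, less that of the median probe of the array, and the HAB and LAB levels split the normalized ratio evenly around it. Of 24192 spots, 79.8% of backgrounds were 0. The tests were checked on simulated data.

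Named genes were those counted or past limma, the 4 largest means in each direction among genes above the empty spots, the 3 brightest of each role, and all alpha subunits and cyclases, which made 35 genes; 1 gene that the rule names was not analysed here. All 58 array names were matched to symbols of the RefSeq table for GRCm38.p6. The number of arrays limits the precision of a pool ratio only. A difference between the lines rests on 1 pool per line in each region. Members and lists were chosen with earlier results of these data known. Alternatives covered background, normalization, the deposited table, a filter, dye, probes, replicates, regions, blocks and the counting rule.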

Additional observations from a re-analysis of the deposited data

Results flagged for a closer look

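The line difference of 3 genes was unequal between regions by the limma F-test: Gnao1 (adjusted p = 0.000116, region values -0.21 to 0.50), Gnb5 (0.00159, -0.51 to 0.35) and Gng10 (0.0227, -0.64 to 0.18). A single array stood far from the other 9 of its region in 13 of the 245 sets of 10 arrays of the named genes, and chance marks about 1 set in 20. In the PVN these arrays were at -0.837 for Git2 (the others between -0.148 and 0.399), 0.959 for Gnb4, -1.93 for Adcy9, -1.82 for Gna11 and -1.19 for Adcy6. In the MeA they were at -1.94 for Gnb4 and 1.89 for Rgs4, and in the NAc at 1.39 for Grk5 and 1.46 for Gpr132. In the Cg they were at 2.41 for Rgs5 and 0.73 for Rgs4, in the BLA at 1.90 for Adcyap1, and in the SON at -2.37 for Gnb2 (the others between -0.965 and 0.607).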

How the results depend on the processing

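The count of genes past limma over the regions was 0 in each direction under all alternatives but 1: with HAB in Cy5 only, 1 gene was lower in HAB, Gng10 (-0.77, adjusted p = 0.0052), against 0.39 with HAB in Cy3 only (adjusted p = 0.130). Pairs counted numbered 2 higher and 0 lower. These became 29 and 21 with HAB in Cy3 only and 25 and 31 with HAB in Cy5 only, where 5 arrays had to share a direction instead of 10. The higher pairs were 1 with the 1.5-fold limit, the deposited table, the mean of all probes or print-tip loess, 0 among probes above the empty spots and 9 when 9 of 10 arrays sufficed; the lower pairs stayed at 0. Without 1 replicate they ran from 2 to 5 higher and from 0 to 2 lower. Pairs past limma within a region, 0 in each direction, became 3 higher with the deposited table, 3 higher and 4 lower among probes above the empty spots, and 1 lower with HAB in Cy5 only. A replicate block left them at 0 higher and 0 lower, as did a block for scanning day; replicate numbers did not pair the arrays (correlations of same-numbered arrays -0.0511 to 0.0422, 18 of 70 arrays closest to their own number). Genes unequal over regions, 3 in all, were 5 without background correction, 6 with print-tip loess, the deposited table or HAB in Cy5 only, 8 among probes above the empty spots and 1 with the mean of all probes; without 1 replicate they ran from 2 to 3 and without 1 region from 2 to 4. Under the alternatives, the F-tests of Gnao1, Gnb5 and Gng10 kept the call in 44 cases and lost it in 12. Among these, Gng10 lost its call without replicate 1, 3, 4 or 5 (adjusted p = 0.0703 to 0.241), Gnao1 with HAB in Cy3 only (0.0734) and Gnb5 with HAB in Cy5 only (0.347). The cause was not tested. Pools of 1 HAB and 1 LAB sample per region leave the spread between mice unmeasured.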
